A study of Mus musculus with 12 samples.

Results

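The 9 genes followed here mark microglia at rest. They were measured, among 18194 genes with a probe set of their own, in the spinal cord of young and aged mice with and without spinal cord injury (SCI). The genes were P2ry12, P2ry13, Tmem119, Cx3cr1, Sall1, Siglech, Gpr34, Olfml3 and Selplg, taken by name as known markers of homeostatic microglia. All 9 passed the filter on low signal, a group mean above 50 in at least 1 group, which 10511 genes passed. The mice were female C57BL/6 animals (C57BL/6J in the methods), young (2 to 3 months) or aged (15 to 18 months), with no transgene or drug named for any group. Each age had an intact group, labelled normal, and a group given a contusion at Th9 and killed 9 days later. Each of the 4 groups held 3 mice, with 1 array per mouse and RNA from the whole Th9 segment after perfusion with heparinized saline. Signals from whole segments mix every cell type in the cord, and fewer cells of a type cannot be told apart from less RNA per cell.

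Microglia are the resident macrophages of the central nervous system, and at rest they survey the tissue with moving processes. In that state they carry receptors for nucleotides, the chemokine fractalkine and lysophospholipids, and a transcriptional program held by TGF-β and by factors such as Sall1 and PU.1. After damage, microglia are known to lower many of these genes while they divide and take up debris, and monocytes that enter from blood become macrophages which share many myeloid genes with them.

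The arrays were alike in scale. The median signal per array ran from 20.4 to 23.9 and the share of probe sets above a signal of 50 from 35.1% to 36.7%. Replicate 1 of the aged injured mice stood apart: its summed signal over 10 neuron genes was 1548, against 6673 and 10100 in the other aged injured arrays and 7029 to 10800 in the young injured ones. Its summed signal over 8 astrocyte genes was 9528, against 14830 to 21130 in the other injured arrays. Values of the 9 genes, and counts of injury calls in other lists, that moved by over 1.5 times without that array are given with and without it.

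Promoters of 4 of the genes are shown because P2ry12 and P2ry13 are neighbours on chromosome 3, of which P2ry13 was called higher after injury and P2ry12 was not, while Siglech was called lower and Olfml3 higher in aged mice. Each is the 250 bases before an annotated start in RefSeq (GRCm38.p6), 5′ to 3′ on the gene's strand. The Siglech window runs past base 55768154, where the annotated span of that gene begins. Matches to GAGGAA or GGAAGT on either strand are in capitals. These letters are parts of the site known for ETS factors such as PU.1, and the motifs share GGAA, so a run of letters can hold both.
P2ry12, chr3:59262986-59263235, strand -: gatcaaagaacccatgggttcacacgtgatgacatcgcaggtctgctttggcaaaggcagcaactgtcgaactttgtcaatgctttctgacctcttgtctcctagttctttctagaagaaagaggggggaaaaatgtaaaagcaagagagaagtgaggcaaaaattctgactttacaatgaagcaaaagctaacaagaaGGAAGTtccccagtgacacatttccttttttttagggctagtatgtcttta
P2ry13, chr3:59210883-59211132, strand -: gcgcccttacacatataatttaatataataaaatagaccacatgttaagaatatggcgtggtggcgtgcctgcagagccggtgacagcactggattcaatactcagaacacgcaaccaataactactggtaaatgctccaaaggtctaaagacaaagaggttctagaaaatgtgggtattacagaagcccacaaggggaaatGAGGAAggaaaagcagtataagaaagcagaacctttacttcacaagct
Siglech, chr7:55767934-55768183, strand +: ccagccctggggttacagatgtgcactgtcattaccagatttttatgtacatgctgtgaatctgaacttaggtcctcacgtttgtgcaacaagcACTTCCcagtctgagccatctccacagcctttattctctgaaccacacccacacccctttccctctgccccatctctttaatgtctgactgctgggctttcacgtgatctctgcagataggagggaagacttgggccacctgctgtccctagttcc
Olfml3, chr3:103738002-103738251, strand -: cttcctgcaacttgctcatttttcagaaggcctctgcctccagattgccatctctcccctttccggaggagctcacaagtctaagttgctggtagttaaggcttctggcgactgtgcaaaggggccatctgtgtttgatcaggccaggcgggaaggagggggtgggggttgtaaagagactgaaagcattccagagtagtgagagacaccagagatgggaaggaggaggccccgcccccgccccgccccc
The table of promoters held 6 of the 9 genes. GGAAGT or its reverse complement was in windows of P2ry12, Sall1 and Siglech, for Sall1 only in that of start site 3. It was in 22.2% of all 27025 genes and in 19.7% of all 32851 windows. GAGGAA or its reverse complement was in that of P2ry13 alone among the 6, in 25.9% of all genes and in 23.3% of all windows. In P2ry12 the match began 51 bases before the start, and in P2ry13 it began 48 bases before it. A match describes the letters only.

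Injury split the genes. Olfml3, Cx3cr1, Gpr34, Tmem119, P2ry13 and Selplg rose in injured cord at both ages, between 2.35-fold and 6.99-fold. P2ry12 did not pass the test at either age, though in young mice it did with array weights (adjusted p = 0.00869), with only the young groups in the model (adjusted p = 0.00826) and without replicate 1 of the aged injured mice, which made 7 genes called. Sall1 and Siglech did not pass it in young mice and fell in aged mice. Thus 6 of 9 genes were called higher in young mice, where 33.9% of all genes tested were called higher and 34.1% lower, and none of the 9 was lower. In aged mice 6 were called higher and 2 lower, where 35.6% of all genes were higher and 39.9% lower. The median log2 fold change of the 9 was 1.78 in young and 1.33 in aged mice, or 1.54 and 1.31 with signals under 50 set to 50, and that of all genes tested was -0.005 and -0.04.

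**Figure D1:**
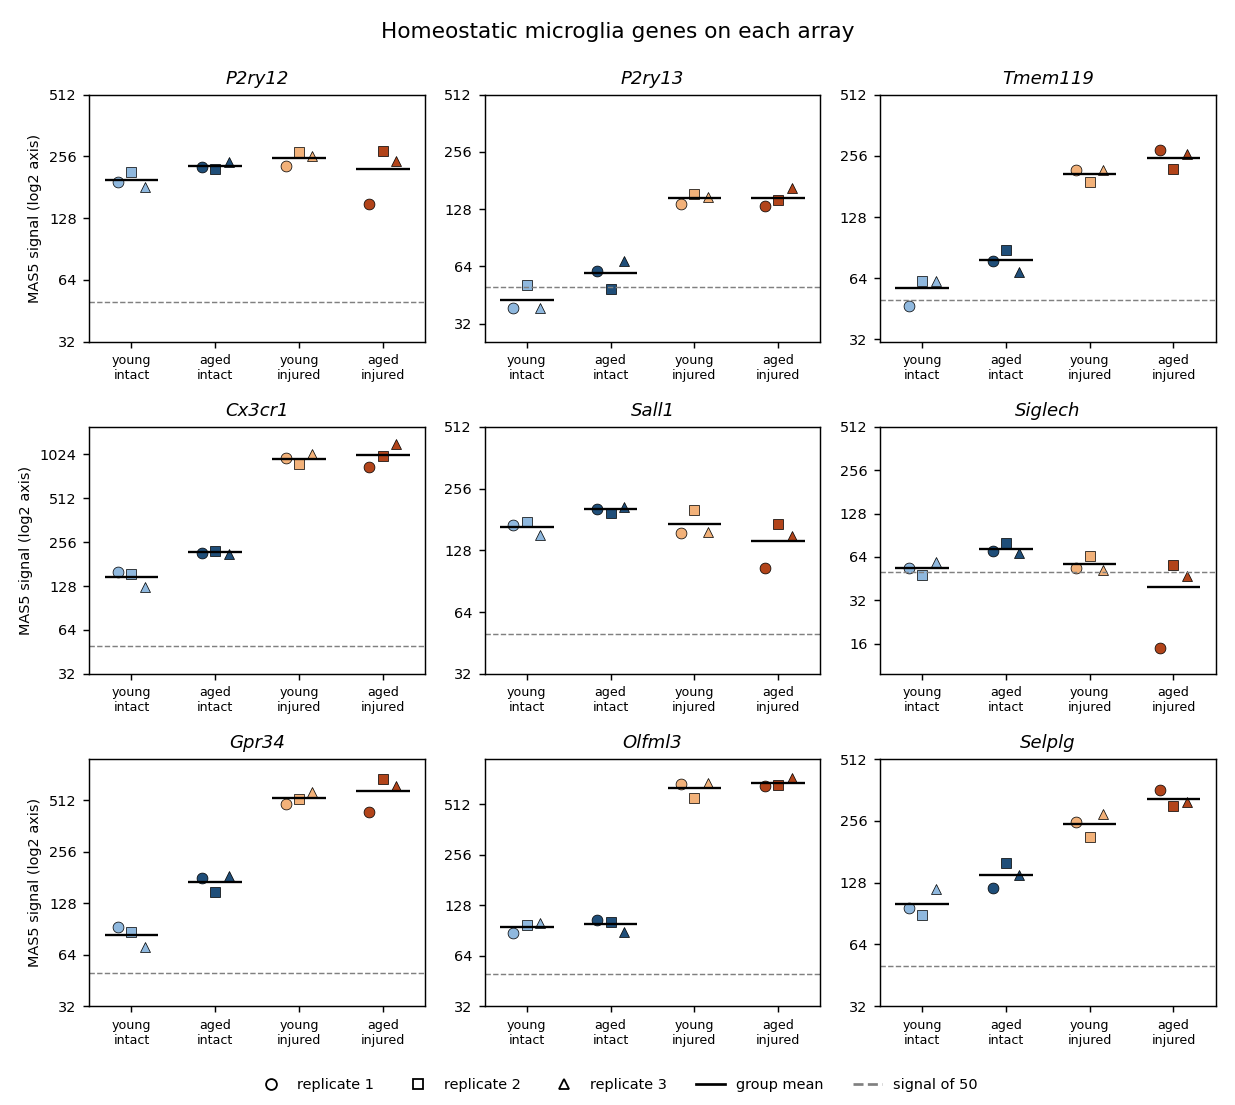
MAS5 signal (log2 axis) of each of the 9 genes on the 12 arrays, by group, with symbols for the replicate, a line at the group mean and a dashed line at 50. In 6 panels both injured groups lie above both intact groups, while P2ry12, Sall1 and Siglech do not, and replicate 1 of the aged injured mice is the low point of those 3.

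P2ry12 encodes the ADP receptor that guides microglial processes toward damage. Its signal was 193, 215 and 181 in young intact cord and 226, 222 and 241 in aged intact cord. After SCI it was 230.2, 269 and 256 in young and 151, 272 and 242 in aged mice. Every young injured value lay above every young intact value, but the log2 fold change of 0.36 ± 0.18 (SE), 1.28-fold, did not pass the test (adjusted p = 0.0946). In aged mice the injured values overlapped the intact ones on both sides, and the log2 fold change was -0.09 ± 0.18 (adjusted p = 0.644). Without replicate 1 of the aged injured mice, the aged difference was 0.16 with an adjusted p of 0.157, and the young difference passed the test with an adjusted p of 0.00284.

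P2ry13, the neighbouring gene, encodes another ADP receptor. Its signal in intact cord lay near the floor of 50, at 38.7, 50.9 and 38.6 in young and 60.3, 48.6 and 67.9 in aged mice. It reached 136, 154 and 148 in young and 134, 143 and 165 in aged injured mice, with no overlap between injured and intact values. The rise was at least 2.92-fold in young mice, with the intact mean set to 50, and the log2 fold change was 1.78 ± 0.15 (adjusted p = 2.84e-06). In aged mice it was 2.50-fold (log2 fold change 1.33 ± 0.15, adjusted p = 1.68e-05). The difference between the responses of the ADP receptor genes was not tested.

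Cx3cr1 encodes the receptor for fractalkine, a chemokine made by neurons. Its signal was 159, 155 and 127 in young intact, 218, 223 and 213 in aged intact, 967, 887 and 1027 in young injured and 842, 995 and 1217 in aged injured cord. Injured values stood far above intact ones, 6.54-fold in young mice (log2 fold change 2.71 ± 0.13, adjusted p = 4.06e-08) and 4.67-fold in aged mice (2.21 ± 0.13, adjusted p = 1.50e-07). A second probe set of the gene, below 50 in intact cord, moved the same way, with log2 fold changes of 2.69 ± 0.17 and 2.57 ± 0.17.

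Gpr34 encodes a receptor for lysophosphatidylserine, a lipid signal. Intact cord gave 93.1, 87.3 and 71.2 in young and 179.7, 148 and 186 in aged mice. Injured cord gave 488, 524 and 570 in young and 436, 684 and 623 in aged mice, so the intact groups were apart and the injured groups overlapped. The rise with injury was 6.29-fold in young mice (log2 fold change 2.66 ± 0.17, adjusted p = 3.00e-07) and 3.39-fold in aged mice (1.74 ± 0.17, adjusted p = 4.96e-06).

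Tmem119 encodes a membrane protein used to tell microglia from other macrophages. Its signal was 46.8, 61.8 and 62.3 in young intact and 78.0, 88.4 and 68.9 in aged intact cord. It was 218, 189.7 and 218 in young injured and 274, 219.6 and 260.1 in aged injured cord, and the 4 groups did not overlap. Injured exceeded intact cord 3.66-fold in young mice (log2 fold change 1.88 ± 0.14, adjusted p = 1.11e-06) and 3.20-fold in aged mice (1.68 ± 0.14, adjusted p = 1.90e-06).

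Selplg encodes the P-selectin ligand PSGL-1, which other leukocytes also carry, and it lies beside Tmem119 on chromosome 5. Its signal was 95.9, 88.7 and 119 in young intact and 119.9, 159.5 and 139 in aged intact cord, with no overlap. It was 252, 213 and 278 in young injured and 364, 303 and 318 in aged injured cord. The rise was 2.45-fold in young mice (log2 fold change 1.29 ± 0.15, adjusted p = 2.30e-05) and 2.35-fold in aged mice (1.24 ± 0.15, adjusted p = 2.18e-05).

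Olfml3 encodes a secreted glycoprotein of the olfactomedin family that microglia make. Its signal was 87.5, 97.3 and 99.5 in young intact and 104, 102 and 88.4 in aged intact cord, with overlap between the ages. It was 674, 554 and 681 in young injured and 661, 669 and 730 in aged injured cord. Injured exceeded intact cord 6.71-fold in young mice (log2 fold change 2.74 ± 0.10, adjusted p = 6.07e-09) and 6.99-fold in aged mice (2.81 ± 0.10, adjusted p = 6.91e-09). All 9 tested fibroblast genes were called higher at both ages as well, and their part in the Olfml3 signal was not tested.

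Siglech encodes a lectin that binds sialic acid, carried by microglia and by plasmacytoid dendritic cells. Its signal was 53.9, 47.7 and 58.9 in young intact and 70.7, 79.4 and 68.5 in aged intact cord. After SCI it was 53.7, 64.9 and 52.0 in young and 14.8, 55.9 and 47.5 in aged mice. The young groups overlapped (log2 fold change 0.09 ± 0.39, adjusted p = 0.851), while every aged injured value lay below every aged intact one. The fall in aged mice was at least 1.46-fold, with the injured mean set to 50, and the log2 fold change was -1.10 ± 0.39 (adjusted p = 0.0233). Without replicate 1 of the aged injured mice the difference was -0.50 with an adjusted p of 0.0101, and with signals under 50 set to 50 it was -0.49. The call was lost without replicate 2 of the aged intact mice (adjusted p = 0.0633) and when only the aged groups entered the model (adjusted p = 0.0864). Of 6 plasmacytoid dendritic cell genes with a probe set, Ccr9 and Ly6d were under 50 in every group. Of the other 4, Bst2, an interferon-induced gene, rose at both ages (at least 5.14-fold and 5.80-fold), Tcf4 rose in young mice (0.22 on the log2 scale), Klk1 rose in aged mice (at least 1.05-fold) and Pacsin1 fell at both ages (-1.74 and -2.07 on the log2 scale). In young intact cord Tcf4 had a mean of 889 and Pacsin1 of 387, while Ccr9 and Ly6d were under 50. These genes thus do not measure plasmacytoid dendritic cells alone. The part of such cells in the Siglech value was not tested.

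Sall1 encodes the zinc finger transcription factor that holds microglial identity. Its signal was 169.7, 175 and 152 in young intact and 205, 195 and 209 in aged intact cord. It was 156, 201 and 157 in young injured and 104, 172 and 149.7 in aged injured cord. Young groups overlapped (log2 fold change 0.04 ± 0.16, adjusted p = 0.827), and its sign turned with the normalization. Aged injured values all lay below aged intact values, 1.43-fold lower (log2 fold change -0.54 ± 0.16, adjusted p = 0.0106). Without replicate 1 of the aged injured mice the difference was -0.34 with an adjusted p of 0.0220. Of 8 tested astrocyte genes 5 fell in aged mice too and none rose, but without that replicate 5 fell and 3 rose. In young mice 2 of the 8 rose and 1 fell. The part of astrocyte genes in the Sall1 value was not tested. The other probe set of Sall1 was under 50 in every group.

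**Figure D2:**
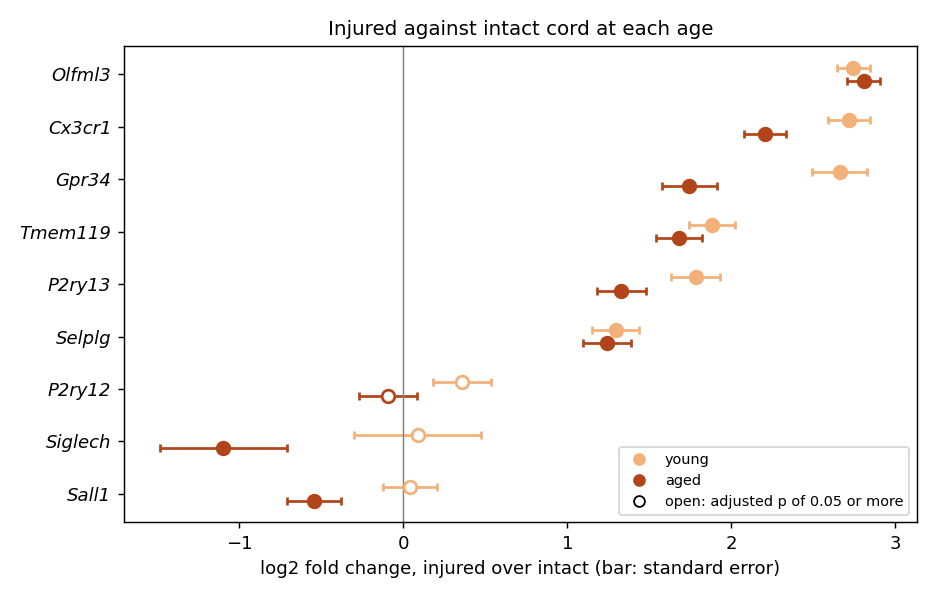
Log2 fold change of injured over intact cord for each gene in young and aged mice, with the standard error as a bar and open symbols where the adjusted p was 0.05 or more. In all, 6 genes lie between 1.24 and 2.81 at both ages, P2ry12 lies near 0, and only the aged values of Sall1 and Siglech are called below 0.

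In young mice 7 of the 9 genes had every injured value above every intact value, the 6 called genes and P2ry12, against 37.5% of all genes tested. In aged mice 6 did, against 36.7% of all genes, and 2 had every injured value below, against 41.6%. Markers of other cells moved with injury too. The 17 pan-myeloid genes, shared by microglia and other macrophages, were called higher at both ages, and their summed signal went from 2767 to 3072 in young intact and 5361 to 5440 in aged intact cord to 31900 to 40780 in young injured and 40580 to 49420 in aged injured cord. Of 12 tested genes listed for monocyte-derived macrophages, 10 rose in young and 12 in aged mice. Of 9 tested neuron genes, 4 fell in young and 8 in aged mice, and none rose. Without replicate 1 of the aged injured mice, 8 fell at each age. All 12 lymphocyte and NK genes with a probe set were under 50 in every group. The part of these cells in the changes of the 9 genes was not tested.

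Set against the mean log2 signal of the 17 pan-myeloid genes on the same array, every one of the 9 genes was lower in every injured array than in every intact array of the same age. The pan-myeloid mean rose by 3.77 in young mice, and in aged mice it went from 0.81 to 4.15, both relative to young intact cord. Relative to it, Sall1, Siglech and P2ry12 moved by -3.72, -3.68 and -3.41 in young mice. Selplg, P2ry13 and Tmem119 moved by -2.47, -1.98 and -1.89. Gpr34, Cx3cr1 and Olfml3 moved by -1.11, -1.05 and -1.02. In aged mice the values ran from -0.53 for Olfml3 to -4.43 for Siglech. These differences are a description on the log2 scale, with no test, and they depend on which pan-myeloid genes are taken.

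**Figure D3:**
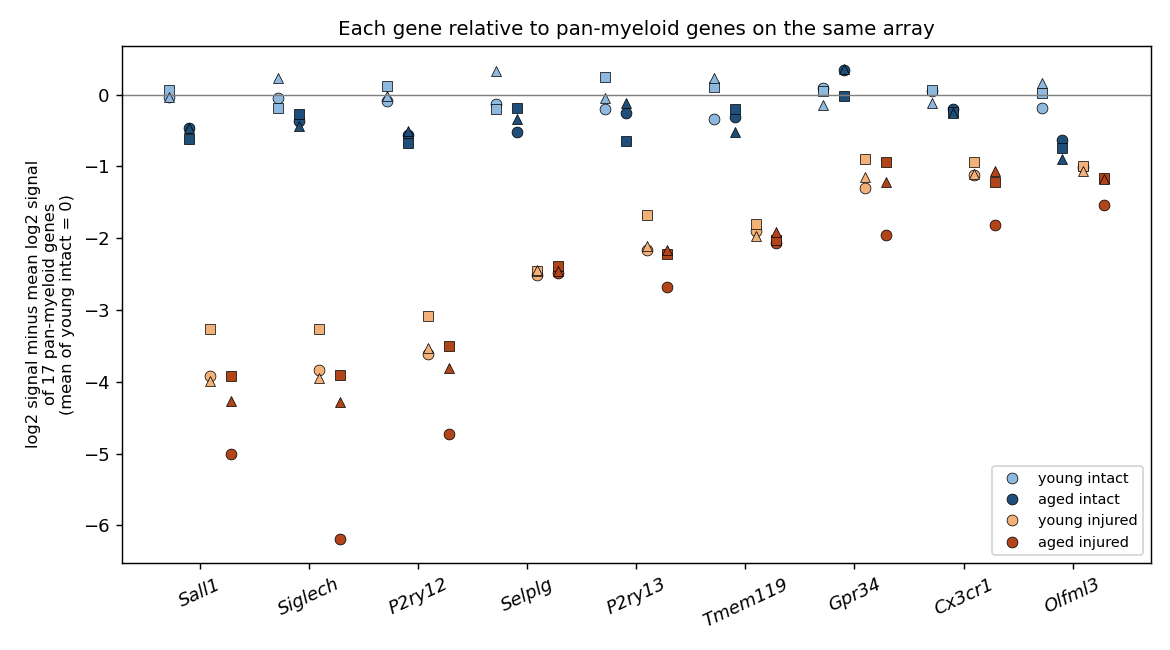
Log2 signal of each gene minus the mean log2 signal of 17 pan-myeloid genes on the same array, with the young intact mean set to 0. Points are arrays and colours are groups. All injured arrays lie below the intact arrays of their age, by about 1 unit for Olfml3, Cx3cr1 and Gpr34 in young mice and by more than 3 for Sall1, Siglech and P2ry12.

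Age alone moved fewer of the genes. In intact cord only Gpr34 passed the test, 2.04-fold higher in aged mice (log2 fold change 1.03 ± 0.17, adjusted p = 0.0161), where 0.542% of all genes were called higher. That call was lost without replicate 2 or 3 of the young intact mice or replicate 1 or 3 of the aged intact mice, with adjusted p from 0.0575 to 0.0902. Every aged intact value lay above every young intact value for 7 of the 9 genes, all but P2ry13 and Olfml3, against 14.3% of all genes tested. Cx3cr1 was 1.48-fold higher (log2 fold change 0.58 ± 0.13, adjusted p = 0.0869), and passed the test without replicate 1 or 3 of the aged injured mice (adjusted p = 0.0114 and 0.0419). It also passed with array weights (adjusted p = 0.00247) and with only the intact groups in the model (adjusted p = 0.00374). Those settings called 692 and 494 of all genes, against 85. Tmem119, Selplg and P2ry13 differed by 0.47 ± 0.14, 0.46 ± 0.15 and 0.46 ± 0.15, with adjusted p of 0.231, 0.25 and 0.27. Siglech, Sall1 and P2ry12 differed by 0.45 ± 0.39, 0.29 ± 0.16 and 0.23 ± 0.18, and Olfml3 by 0.05 ± 0.10. Of the 17 pan-myeloid genes, 12 were called higher in aged intact cord, with a median of 0.85 against 0.46 for the 9 genes and 0.00 for all genes tested. Relative to the pan-myeloid mean, Gpr34 alone was above young intact cord on average, at 0.23, and the other 8 lay between -0.76 and -0.23.

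Among injured mice none of the 9 genes passed the limma test between the ages, where 8.99% of all genes did. That share ran from 2.81% to 29.1% with 1 array left out, highest without replicate 2 of the aged injured mice, and no gene was called with only the 2 groups in the model. Of the 9 genes 1, Selplg, had an unadjusted p under 0.05 in limma, against 11 of 17 pan-myeloid genes and 0 of 9 neuron genes. The share of all genes at that unadjusted p was not counted here. By the study's cutoffs, a mean above 50 and a fold of 2, the count was also 0. The share of all genes by those cutoffs was not counted here, so that 0 has no background to be read against. Selplg was 1.32-fold higher in aged mice (log2 fold change 0.41 ± 0.15, adjusted p = 0.0924). Selplg and Tmem119 had every aged value above every young value, against 14.0% of all genes. Tmem119 differed by 0.26 ± 0.14 (adjusted p = 0.218). Gpr34, Olfml3, Cx3cr1 and P2ry13 differed by 0.12 ± 0.17, 0.11 ± 0.10, 0.07 ± 0.13 and 0.01 ± 0.15. Siglech, Sall1 and P2ry12 differed by -0.74 ± 0.39, -0.29 ± 0.16 and -0.23 ± 0.18, and without replicate 1 of the aged injured mice by -0.14, -0.09 and 0.03, and P2ry13, Cx3cr1 and Gpr34 by 0.07, 0.20 and 0.31. Without replicate 2 of that group Siglech was called lower (-1.09, adjusted p = 0.0491).

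**Figure D4:**
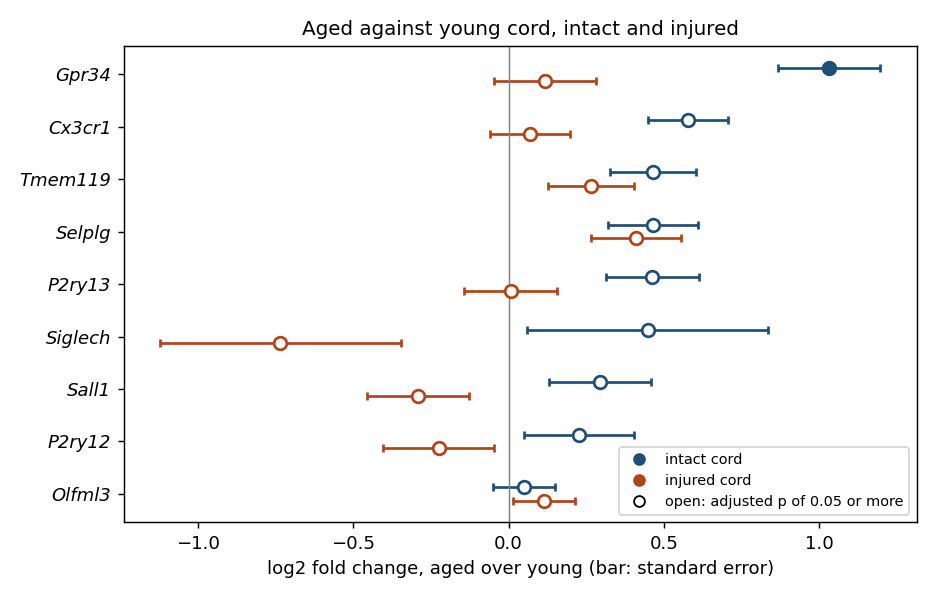
Log2 fold change of aged over young cord for each gene in intact and injured mice, with the standard error as a bar and open symbols where the adjusted p was 0.05 or more. Gpr34 in intact cord, at 1.03, is the one filled symbol.

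The test of whether the response to injury differed with age called none of the 9 genes, where it called 0.438% of all genes. In limma 3 of the 9 had an unadjusted p under 0.05, against 12 of 17 pan-myeloid genes and 0 of 9 neuron genes. The share of all genes at that unadjusted p was not counted here. For Gpr34 the log2 change in aged mice minus that in young mice was -0.92 ± 0.23 (adjusted p = 0.122), and it passed the test without replicate 2 of the aged injured mice (adjusted p = 0.0356). Sall1 differed by -0.59 ± 0.23 and Cx3cr1 by -0.51 ± 0.18, with adjusted p of 0.253 and 0.218. Siglech, P2ry13 and P2ry12 differed by -1.18 ± 0.55, -0.46 ± 0.21 and -0.45 ± 0.25. Without replicate 1 of the aged injured mice the differences were -0.58 for Siglech, -0.20 for P2ry12, -0.38 for Sall1 and -0.13 for Selplg. Tmem119, Selplg and Olfml3 differed by -0.20 ± 0.20, -0.05 ± 0.21 and 0.07 ± 0.14. The falls of Sall1 and Siglech in aged mice are therefore not shown to differ from their values in young mice.

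Genes for the ligands and partners of these receptors were read in the same model. Of 19 listed, 18 had a probe set paired with 1 gene and 16 were tested. After SCI 13 were called higher and 1 lower in young mice, with a median of 1.41, and 11 higher and 2 lower in aged mice, with a median of 1.04. With signals under 50 set to 50 the medians were 0.82 and 0.80. The exception in both was Cx3cl1, which encodes fractalkine itself: its signal went from 154 ± 8.14 to 78.6 ± 1.36 in young and from 149 ± 10.7 to 53.5 ± 15.4 in aged mice (mean ± SD, n = 3). Its log2 fold changes were -0.97 ± 0.17 (adjusted p = 5.41e-04) and -1.52 ± 0.17 (adjusted p = 1.67e-05), while its receptor gene rose.

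Tyrobp, the adaptor through which Siglech signals, rose by 4.07 ± 0.11 in young and 3.21 ± 0.11 in aged mice on the log2 scale, and Hcst, a like adaptor, rose at least 1.70-fold and at least 2.17-fold, with group means under 50 set to 50 here and below. Without injury Tyrobp was already higher in the aged mice (1.02 ± 0.11, adjusted p = 0.00146). Among genes of the CSF1 receptor, on which microglia depend, Csf1r rose by 2.14 ± 0.08 and 1.52 ± 0.08, and its ligand Csf1 by 1.14 ± 0.10 and 0.53 ± 0.10. The other ligand, Il34, which neurons make, had a mean above 50 only in young injured cord. It was at least 1.31-fold higher there than in young intact cord (adjusted p = 0.00163) and at least 1.31-fold higher than in aged injured cord (adjusted p = 0.0138). Between injured groups Csf1 was lower in aged mice, at -0.48 ± 0.10 on the log2 scale (adjusted p = 0.0186).

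Of the TGF-β genes, Tgfb1 had a mean above 50 only in aged injured cord, at least 1.49-fold higher than in aged intact cord. It was called higher with injury in young mice too (adjusted p = 0.00132), where both means were under 50. Its difference between the injured groups did not pass the test (adjusted p = 0.351). Tgfbr1 rose by 2.47 ± 0.07 and 2.30 ± 0.07, and Tgfbr2 by 2.62 ± 0.14 and 2.44 ± 0.14. Without injury Csf1r and Tgfbr1 were higher in the aged mice, by 0.53 ± 0.08 and 0.37 ± 0.07. Among enzymes that break down nucleotides, Entpd1 rose at least 1.83-fold and at least 1.89-fold. Entpd2 rose in young mice (0.72 ± 0.08) and differed by 0.02 ± 0.08 in aged mice, and this difference between the ages passed the test (-0.70 ± 0.12, adjusted p = 0.0376). In injured cord Entpd2 was lower in the aged mice, with a difference of -0.59 ± 0.08 (adjusted p = 0.0061). Nt5e, which makes adenosine, differed by 0.22 ± 0.16 and 0.27 ± 0.16 and did not pass the test (adjusted p = 0.246 and 0.142).

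For the lipid that Gpr34 senses, Abhd12, which degrades it, rose by 0.46 ± 0.07 and 0.86 ± 0.07. In injured cord Abhd12 was higher in the aged mice by 0.28 ± 0.07, a call lost without replicate 1 of the aged injured mice. Abhd16a, which makes that lipid, differed by -0.07 ± 0.06 in young mice (adjusted p = 0.374) and fell in aged mice (-0.39 ± 0.06). Pla1a, another source, rose at least 2.49-fold and at least 2.19-fold. Bmp4, a growth factor, rose by 1.15 ± 0.14 and 0.74 ± 0.14 and in injured cord was lower in the aged mice (-0.86 ± 0.14). The selectin genes Sele and Selp, whose products bind PSGL-1, were under 50 in every group.

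Other microglia genes moved in the same direction as the 6 that rose. Of 20 tested genes from a further list of homeostatic genes, 17 rose and 1 fell in young mice (median 1.91), and 16 rose and 2 fell in aged mice (median 1.74). With signals under 50 set to 50 the medians were 1.15 and 1.12, and without replicate 1 of the aged injured mice 3 fell in young and 0 in aged mice. P2ry6, a UDP receptor used in phagocytosis, rose at least 4.87-fold and at least 6.57-fold, and Fcrls, an Fc receptor-like gene, by 4.15 and 3.76 on the log2 scale. Bin1, an endocytic adaptor that neurons and oligodendrocytes also express, fell (-0.52 and -0.18), and Adgrg1, an adhesion receptor, fell in aged mice (at least 1.08-fold). Cmtm6 was the 1 gene of this list called higher in aged intact cord, by 0.48. Of 12 tested transcription factors of microglia, 11 rose at each age and none fell, with medians of 1.35 and 1.40, or 0.90 and 0.99 with signals under 50 set to 50. Irf8 rose at least 7.65-fold and at least 9.42-fold and Runx1 at least 4.15-fold and at least 5.27-fold. Irf8 was called higher in aged intact cord, but both intact means were under 50, and Mef2a was higher in aged injured cord by 0.34.

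Of 19 tested genes of disease-associated microglia, 18 rose at each age, with medians of 2.94 and 3.08, or 2.78 and 2.64 with signals under 50 set to 50. Gpnmb rose at least 94.4-fold and at least 117-fold, Cst7 at least 7.93-fold and at least 6.14-fold, and Trem2 at least 26.2-fold and 27.2-fold. Between intact groups 7 of them were higher and 1 lower in aged mice, among them Lgals3 (2.60) and Cst7, whose intact means were both under 50, with Igf1 lower (-1.34). The rise of Lgals3 with injury was smaller in aged mice, with a difference of -1.96 (adjusted p = 0.00959). In injured cord Ccl6 and Lpl were higher in the aged mice, by 1.12 and 0.83. Of the 19 genes 5 were called higher there, and 3 without replicate 1 of the aged injured mice. The 17 pan-myeloid genes had medians of 3.75 and 3.54, or 3.75 and 3.35 with signals under 50 set to 50. Cd68 rose at least 42.4-fold and 46.2-fold, Mpeg1 31.5-fold and 13.7-fold, and Cyba 22.2-fold and 23.6-fold. For Mpeg1 and Aif1 the rise was smaller in aged mice as well, with differences of -1.19 and -1.06.

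Genes listed for monocyte-derived macrophages had a median change of 1.85 in young and 3.37 in aged mice, or 1.54 and 2.16 with signals under 50 set to 50. Some had signal in intact cord too, such as Mgst1 (794 in young and 851 in aged mice) and Fn1 (576.5 and 450.2). Others, such as Arg1 and Cd36, lay under 50 there. The median is thus not a measure of macrophages from blood alone. Cd36 rose at least 16.4-fold and at least 68.8-fold, and Arg1 at least 4.37-fold and at least 35.8-fold. In injured cord both were higher in the aged mice, by 2.09 and 3.25 on the log2 scale. Of the 12 tested genes of this list 5 were called higher there, and 3 without replicate 1 of the aged injured mice. Of 7 tested genes of border-associated macrophages, 6 rose at each age, among them Ms4a7 (at least 26.3-fold and at least 36.7-fold), and Pf4 and F13a1 were higher in aged injured cord. All 7 tested cell cycle genes rose at each age, with medians of 2.27 and 3.31, or 1.32 and 2.40 with signals under 50 set to 50. Mki67 rose at least 3.16-fold and at least 7.88-fold.

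Lists of other cells of the cord moved less evenly. Of 8 tested astrocyte genes, 2 rose and 1 fell in young mice and 5 fell in aged mice. Without replicate 1 of the aged injured mice 3 rose and 3 fell in young mice, and 3 rose and 5 fell in aged mice. Gfap rose in young mice (0.90) and Gjb6 fell at both ages (-0.33 and -1.40). Of 8 tested oligodendrocyte genes, 1 rose and 1 fell in young mice and 5 fell in aged mice, led by Ermn (-1.19). Without that replicate 1 rose at each age, 4 fell in young mice and 2 in aged mice. Of 6 tested endothelial genes, 2 rose in young mice, and 1 rose and 2 fell in aged mice, where 1 fell without that replicate. Of 6 tested neutrophil genes, 1 rose in young and 2 in aged mice, among them Csf3r (at least 2.85-fold and at least 2.77-fold), and 6 of 7 platelet genes were under 50 in every group.

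**Figure D5:**
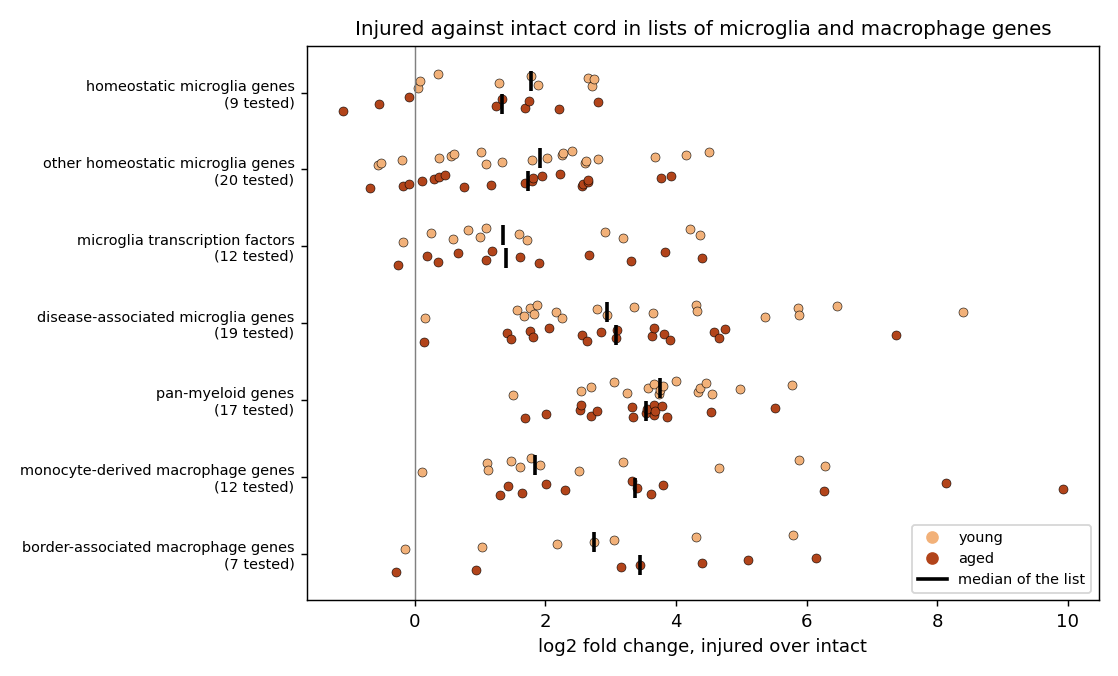
Log2 fold change of injured over intact cord for each tested gene of 7 lists, in young and aged mice, with a line at the median of each list and no floor on the signals, so values of genes under 50 in intact cord are not bounds. The 9 homeostatic genes have medians of 1.78 and 1.33, and the pan-myeloid genes of 3.75 and 3.54.

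Genes with the most similar profiles differed between the members. Likeness was the root mean square difference of log2 signals, each centred on its own mean, over the 12 arrays. Nearest to Cx3cr1 were Lyz1, Cd86 and H2-D1 (from 0.133 to 0.202) and to Gpr34 Ctss, Cd33 and Cd86 (from 0.207 to 0.250). For Olfml3 they were Ctsd, Hexa and Ang (from 0.135 to 0.173), for Tmem119 Ifi35, Plcg2 and Cdca4 (from 0.126 to 0.140), for Selplg Psme1, Stx3 and Usp3 (from 0.142 to 0.155) and for P2ry13 Cox6b2, Tm4sf1 and F11r (from 0.184 to 0.199). For Sall1 they were Slc1a3, Zswim7 and Pkp4 (from 0.106 to 0.116), of which Slc1a3 is a glutamate transporter gene of astrocytes. Siglech had Rimklb, Penk and Ret (from 0.153 to 0.226) and P2ry12 had Srxn1, Ankrd28 and Sdc2 (from 0.105 to 0.108). Among the 9 genes themselves, P2ry12 and Sall1 differed by 0.208, and Cx3cr1 and Gpr34 by 0.249, while Siglech and Olfml3 differed by 1.73.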

How the data were processed

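RNA from Th9 cord segments of 12 mice (4 groups of 3) was hybridized to Affymetrix mouse arrays. The authors deposited 1 table of linear signal intensity for 45101 probe sets, made with MAS5 per the labels; the software version was not given in the sources used here. The trimmed mean (2% off each end) was 99.97 on every array. Probe sets paired with 1 gene numbered 34958, with several 932 and with none 9211. A gene was represented by its probe set of highest mean signal. Genes with a group mean above 50 were tested on log2 signal with limma 3.58.1 in R 4.3.3 (lmFit and eBayes with trend), 1 mean per group over all 12 arrays, 5 contrasts, Benjamini-Hochberg adjustment over 10511 genes, called at an adjusted p under 0.05. Scripts were tested on simulated data. The number of arrays limits the precision. A fold against a group mean under 50 was computed with that mean at 50 and written as at least. The named genes were the 9 members, every gene of the list of ligands and partners, for other lists up to 2 genes per direction and comparison with the largest called change, and the 3 nearest genes per member. The members and lists were chosen with earlier results of these data known. List genes with no probe set of their own were not analysed here. Alternatives covered the filter, pseudocount, floor, normalization, trend, array weights, samples in the model, replicate number as a block, other probe sets, the study's cutoffs and each array left out. List counts without replicate 1 of the aged injured mice, and list medians and folds with signals under 50 set to 50, were alternatives chosen after seeing the data.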

Additional observations from a re-analysis of the deposited data

How the results depend on the processing

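The directions of the 6 genes that rose with injury, and their calls at both ages, held under every alternative run. For injured against intact young cord, 6 genes were called, against 7 (P2ry12 also) with array weights, with only the 2 groups compared and without replicate 1 of the aged injured mice. Of all genes tested, 7149 were called there, against 7857, 7418 and 7605 in the same order. For aged against young intact cord, 1 gene was called, against 4 with array weights (gene by gene, since the default estimate did not converge), 3 with only the 2 groups compared, and 0 to 2 with 1 array left out. Calls over all genes rose as well, from 85 to 692 with array weights and 494 with only the 2 groups compared. With 1 array left out they numbered 33 to 216. For aged against young injured cord, 0 genes were called (the share of all genes called, 8.99%, was 3.64% with no filter on signal and 16.9% with array weights), and 0 to 1 with 1 array left out. For the difference in response with age, 0 were called, against 1 with array weights (Gpr34) and 0 to 1 with 1 array left out. Over all genes 46 were called there, against 827 with array weights and 7 to 526 with 1 array left out. Values near 0 that did not pass the test changed sign. Sall1 in young mice after injury was -0.0076 with quantile normalization, -0.018 with median centring and -0.034 with array weights, and -0.076 to 0.104 with 1 array left out. Siglech there was -0.082 with quantile normalization, and -0.012 to 0.158 with 1 array left out. P2ry12 in aged mice after injury was 0.073 with array weights, and -0.263 to 0.162 with 1 array left out. With 1 array left out, aged against young injured cord gave -0.394 to 0.030 for P2ry12, -0.077 to 0.074 for P2ry13, -0.067 to 0.199 for Cx3cr1 and -0.014 to 0.311 for Gpr34. Olfml3 ran from -0.0071 to 0.123 for age in intact cord and from -0.032 to 0.121 for the difference in response, where Selplg ran from -0.177 to 0.047. The cause was not tested. Deviations of same-numbered arrays correlated from -0.11 to 0.67 in 18 pairs, 2 of them above 0.1. Both lay between young and aged injured arrays, at 0.60 for replicate 1 and 0.67 for replicate 2, while replicate 3 gave 0.01. Differently numbered arrays of those groups ran from -0.63 to 0.32. The labels do not say whether injured arrays of the same number shared a batch. With the replicate block the counts were 1, 0, 6, 8 and 0 genes, as without it. By the study's cutoffs 6 genes were called in aged mice after injury, against 8. The share of all genes by those cutoffs was not counted here.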
